A study of Mus musculus with 6 samples.

Results

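The genes described here carry nitric oxide and natriuretic peptide signals in the vessel wall: the endothelial nitric oxide synthase Nos3, the natriuretic peptide receptors Npr1, Npr2 and Npr3, the cGMP-dependent protein kinase Prkg1, and the phosphodiesterases Pde1a, Pde3a and Pde5a. They were picked by symbol from the deposited table, and all 8 of them were found among its 35275 genes. Each was read in 6 RNA libraries of whole mouse aorta, 3 with the wild-type genotype and 3 labelled EC-Jag1KO, whose endothelial cells are described as deficient in the Notch ligand Jagged1. No treatment is named for either group, and the sources used here do not give the promoter that drives the deletion, the age of the mice or any pooling of animals. Levels are FPKM, which divide the fragments of a gene by its length and by the library's total, so they can be set side by side between genes of different length.

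Nitric oxide made by Nos3 in the endothelium diffuses to the smooth muscle beneath and switches on soluble guanylyl cyclase, which makes cGMP. Natriuretic peptides raise cGMP by a separate route, because the receptors Npr1 and Npr2 are themselves guanylyl cyclases that sit in the membrane, while Npr3 binds the same peptides and removes them. cGMP activates Prkg1, which lowers calcium and relaxes the muscle, and phosphodiesterases end the signal by hydrolysing the cyclic nucleotide.

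Sequence just before the annotated start was available from RefSeq (assembly GRCm38.p6) for 6 of the 8 genes, in 10 windows of 250 bases, and Nos3 and Pde3a had no entry. The 3 windows that touch no annotated exon are printed to show the sequence in front of the kinase and of the most abundant receptor. Prkg1 has a pair of starts that lie far apart, and the deposited table gives 1 value over both. Each is read 5′ to 3′ on the minus strand, which is the strand of the gene, and the last base is the one before the start. Capitals mark TGGGAA, the core motif bound by the Notch effector RBPJ, and GGGCGG, the GC box bound by SP1, on either strand (CCGCCC is the GC box on the other strand).
Npr1, chr3:90465867-90466116: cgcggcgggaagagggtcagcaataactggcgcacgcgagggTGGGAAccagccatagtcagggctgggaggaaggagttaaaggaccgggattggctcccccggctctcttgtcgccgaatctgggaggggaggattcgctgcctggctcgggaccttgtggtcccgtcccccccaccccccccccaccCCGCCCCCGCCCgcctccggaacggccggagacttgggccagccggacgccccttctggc
Prkg1, chr19:31765034-31765283: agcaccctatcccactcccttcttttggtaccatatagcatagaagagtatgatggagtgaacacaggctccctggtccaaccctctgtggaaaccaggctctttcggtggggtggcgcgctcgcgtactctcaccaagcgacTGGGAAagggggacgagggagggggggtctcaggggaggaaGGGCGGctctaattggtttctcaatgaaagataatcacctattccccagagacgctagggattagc
Prkg1, chr19:31664371-31664620: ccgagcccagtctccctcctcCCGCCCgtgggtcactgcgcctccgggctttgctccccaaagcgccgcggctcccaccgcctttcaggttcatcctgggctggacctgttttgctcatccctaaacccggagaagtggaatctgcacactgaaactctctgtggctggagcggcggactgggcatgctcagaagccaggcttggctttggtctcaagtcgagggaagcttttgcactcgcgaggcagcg
In the Npr1 window TGGGAA began at position -208 and the GC boxes at -60 and -54 from the start. In the first Prkg1 window TGGGAA began at -107 and a GC box at -66, and in the other a GC box began at -229. Of the windows not printed, that of Pde5a held 1 TGGGAA at -104 and 1 GC box at -82. The Pde5a gene begins at chr3:122728947 in the GENCODE annotation, upstream of both of these matches. Among the 4 Pde1a windows 1 held TGGGAA at -201. No motif overlapped another. TGGGAA on either strand occurs in 21.6% of all 32851 windows of this length and GGGCGG in 32.7%, so such matches are common. The CArG box, the site bound by serum response factor, occurs in 1.47% of windows and was not among the letters of these 10. A match describes the letters only.

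The libraries held 19889910 to 25914325 reads in genes, and each of the 8 genes was covered by at least 338 reads in every library. Because the labels do not tie the libraries to separate animals, p-values cover only how these samples vary, which may be in part technical. Xist and Y-linked genes marked wild-type replicate 3 and EC-Jag1KO replicate 3 as female and the other 4 libraries as male. Each group thus holds RNA of both sexes. Across genes, the log2 values of EC-Jag1KO replicate 3 correlated with those of other libraries at r = 0.961 to 0.971, and the other pairs reached 0.967 to 0.983. By chi-square per degree of freedom, wild-type replicate 2 was about as far from the rest (30.7 to 73.7) as EC-Jag1KO replicate 3 (37.0 to 70.9). In EC-Jag1KO replicate 3, values lay above the gene's mean in long genes (median 0.14 on the log2 scale over the 3041 longest tested genes) and below it in short ones (-0.18 over the 3044 shortest). The 5 blood markers summed to 740 to 1518 FPKM in wild-type and 190 to 918 FPKM in EC-Jag1KO aorta, with 0 of 5 higher on average in EC-Jag1KO, and 6 of 6 mesothelial markers were higher on average in EC-Jag1KO at very low levels (summed 0.400 to 0.530 against 1.34 to 2.51 FPKM, with Upk1b at 0 in 5 libraries). Cardiac muscle markers were higher in EC-Jag1KO for 6 of 7 (10.6 to 26.2 against 14.5 to 45.4 FPKM) and highest in EC-Jag1KO replicate 2. Schwann and nerve markers were higher for 6 of 7 (7.95 to 12.2 against 11.1 to 13.2 FPKM), and fibroblast markers (6 of 8), macrophage markers (6 of 7), lymphocyte markers (3 of 8) and skeletal muscle markers (1 of 6) overlapped between the groups in summed level. The part of these lists in the results was not tested. Jag1 itself, read over the whole gene, stood at 9.86, 10.6 and 16.9 FPKM in wild-type and 13.5, 9.42 and 19.6 FPKM in EC-Jag1KO aorta, which does not check a deletion limited to endothelium.

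No gene of the 8 passed the adjusted threshold of 0.05 between the genotypes in limma, and neither did any of the 12165 genes tested (0.0% of the background, with 938 at an unadjusted p under 0.05). A count-based limma fit (voom) on reads recovered from the table also called 0. On the scale log2(FPKM + 1) Prkg1, Pde5a and Pde1a stood highest in EC-Jag1KO aorta relative to wild-type, by 0.48, 0.45 and 0.34. Nos3 and Npr1 lay lower by -0.24 and -0.23, and Npr3, Pde3a and Npr2 lay between. An unadjusted p under 0.05 was reached by 3 of the 8, each of them higher in EC-Jag1KO, against 7.71% of all tested genes (4.25% higher and 3.46% lower). The groups did not overlap for 1 of the 8, Pde5a, against 13.6% of all tested genes (6.84% higher and 6.73% lower). The median difference of the 8 was 0.13 and that of all tested genes was -0.00022, with 6 of the 8 above 0 against 50.0% of all. The counts depend on single libraries: 0 of the 8 reached an unadjusted p under 0.05 without wild-type replicate 3 or without EC-Jag1KO replicate 3, 1 did without wild-type replicate 1, wild-type replicate 2 or EC-Jag1KO replicate 1, and 4 did without EC-Jag1KO replicate 2. Without both female libraries it was 0 of the 8.

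**Figure D1:**
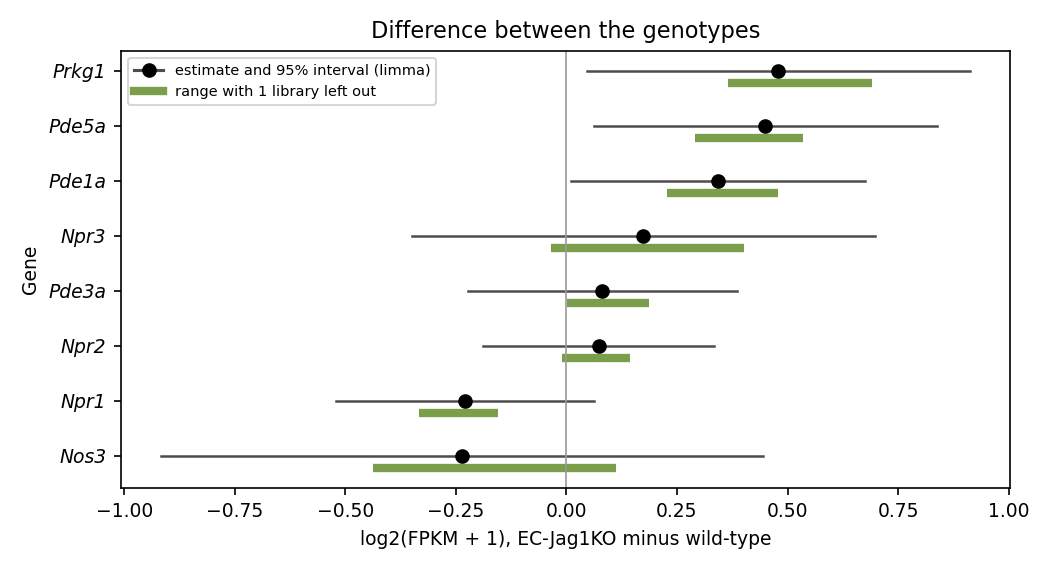
Difference between EC-Jag1KO and wild-type aorta for the 8 genes on the log2(FPKM + 1) scale (horizontal axis), with the 95% interval from limma as a thin line and the range of the estimate when each of the 6 libraries is left out as a green bar. The intervals of Prkg1, Pde5a and Pde1a lie above 0 before adjustment, and the green bars of Nos3, Npr3 and Npr2 reach across 0.

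By level the cyclase receptors Npr1 and Npr2 came first and the clearance receptor Npr3 last. In wild-type aorta Npr1 stood at 109 FPKM, followed by Npr2 at 47.7, Pde5a at 35.0, Pde3a at 26.9, Nos3 at 10.6, Pde1a at 6.23, Prkg1 at 4.15 and Npr3 at 3.46 FPKM. The ranges of neighbouring genes in that order overlapped for Pde5a and Pde3a and for Prkg1 and Npr3. The order of means was the same in EC-Jag1KO aorta, where the ranges of Npr2 and Pde5a, of Nos3 and Pde1a, of Pde1a and Prkg1, and of Prkg1 and Npr3 overlapped. The steadiest of the 8 was Npr2, whose highest library was 1.24 times its lowest, and the widest was Nos3 at 2.57 times. EC-Jag1KO replicate 3 had the highest value of all libraries for 4 genes (Prkg1, Pde1a, Pde3a and Pde5a) and the lowest for Nos3.

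**Figure D2:**
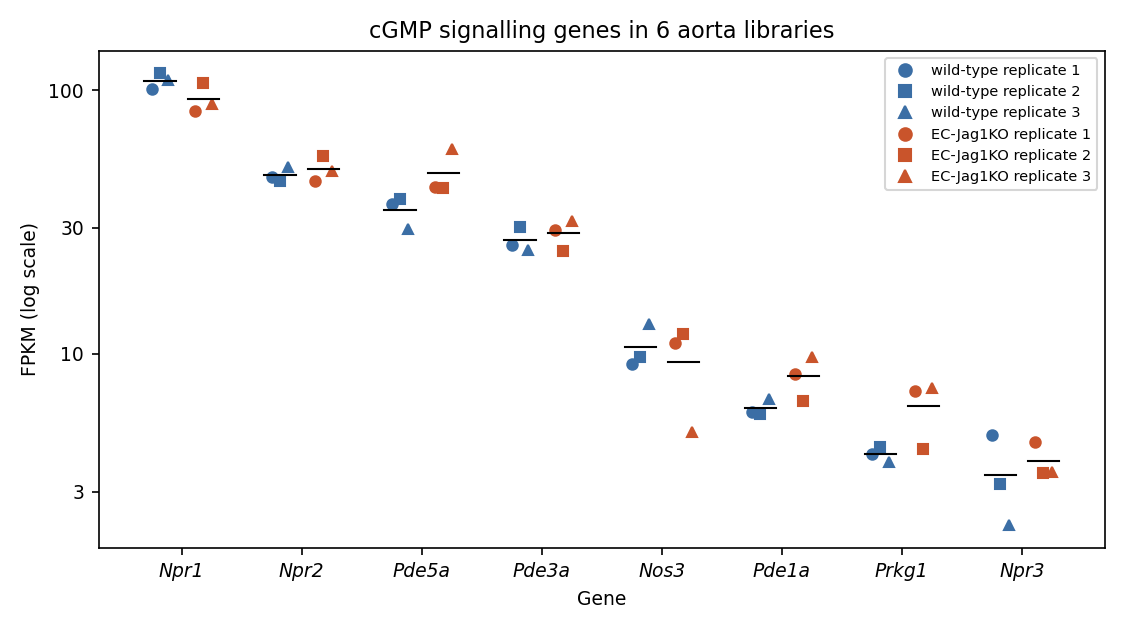
FPKM of each of the 8 genes in each library on a log axis, with wild-type in blue, EC-Jag1KO in orange, the replicate number as the marker shape and the group mean as a black line. Genes run from the highest wild-type mean, Npr1 at 109 FPKM, to the lowest, Npr3 at 3.46 FPKM, and Pde5a is the gene whose groups are apart.

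Nos3 (ENSMUSG00000028978, plus strand, chr5:24364810-24384474 in mm10) is the enzyme that makes nitric oxide in endothelial cells. It stood at 9.18, 9.72 and 12.9 FPKM in the wild-type libraries and at 10.96, 11.9 and 5.03 FPKM in the EC-Jag1KO libraries. EC-Jag1KO replicates 1 and 2 thus lay inside the wild-type range and replicate 3 lay below every other library. The means were 10.6 ± 2.04 and 9.30 ± 3.73 FPKM (SD, n = 3 each), and the log2 difference was -0.24 with SE 0.29, a 95% interval from -0.92 to 0.45 and an adjusted p of 0.893 (limma). It was 0.11 without EC-Jag1KO replicate 3. Among the male libraries the difference was 0.25 and between the single female libraries it was -1.21, and the limma test of that interaction gave an adjusted p of 0.106 over all tested genes. The female value rests on 1 library per group, so that test holds no spread among female libraries. Sex and library cannot be told apart.

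The endothelial markers as a list had a mean log2 level of 4.35 in EC-Jag1KO replicate 3, inside the wild-type range of 4.04 to 4.65. Between the female libraries 9 of the 12 markers were lower in EC-Jag1KO, against 3 of 12 among the male ones. Only 1 of the 12 markers was, like Nos3, lowest of all libraries in EC-Jag1KO replicate 3. It was Cldn5, a tight junction gene of endothelium, at 11.4 FPKM, with a log2 difference of -1.78 between the female libraries. All 12 endothelial markers were detected in all libraries, 6 of the 12 had the higher mean in EC-Jag1KO, and their summed level was 355 to 522 FPKM in wild-type and 393 to 488 FPKM in EC-Jag1KO aorta. Relative to the mean of these markers, log2 Nos3 was -0.77, -0.62 and -0.85 in wild-type and -0.93, -0.52 and -1.76 in EC-Jag1KO libraries, so EC-Jag1KO replicate 3 stayed the lowest on this scale too. In whole tissue, fewer cells of a type and less RNA per cell cannot be told apart. The overlapping genes Atg9b and Gm15587, on the opposite strand, stayed below 1 FPKM in every library. Nos3 has a GC content above that of 90.7% of tested genes, and in EC-Jag1KO replicate 3 the 3028 tested genes with the highest GC content lay at a median of -0.12 from their means. The part of GC content in the Nos3 value was not tested beyond removing its trend, which left a difference of -0.18.

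Npr1 (ENSMUSG00000027931, minus strand, chr3:90450591-90465866) is the receptor for atrial and B-type natriuretic peptide. Its levels were 100.6, 116 and 109 FPKM in wild-type and 83.1, 107 and 88.4 FPKM in EC-Jag1KO libraries. The groups overlapped through EC-Jag1KO replicate 2, which lay above wild-type replicate 1, while the other EC-Jag1KO libraries lay below all wild-type ones. The means were 109 ± 7.58 and 92.8 ± 12.4 FPKM, a ratio of 0.855, and the log2 difference was -0.23 with an interval from -0.52 to 0.061 and an adjusted p of 0.722. With any 1 library left out it stayed negative, between -0.33 and -0.16 (-0.33 without EC-Jag1KO replicate 2, with an adjusted p of 0.351). It was negative in male libraries (-0.19) and female libraries (-0.30). The antisense gene Gm16048 had at most 18 reads in a library against at least 7400 for Npr1.

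Npr2 (ENSMUSG00000028469, plus strand, chr4:43631935-43651244), the receptor for C-type natriuretic peptide, stood at 46.7, 45.3 and 51.0 FPKM in wild-type and 45.3, 56.4 and 49.2 FPKM in EC-Jag1KO libraries. The groups overlapped, with EC-Jag1KO replicate 2 the highest library. The log2 difference was 0.073 with an interval from -0.19 to 0.33 and an adjusted p of 0.919. Reads of the antisense gene Gm12473 (17.3 to 27.4 FPKM) could in part be reads of Npr2, since the strand setting is not given.

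Npr3 (ENSMUSG00000022206, minus strand, chr15:11839896-11905674), the clearance receptor, was the lowest of the 3 receptors. Its levels were 4.92, 3.22 and 2.24 FPKM in wild-type and 4.61, 3.53 and 3.57 FPKM in EC-Jag1KO libraries. The wild-type range enclosed all EC-Jag1KO values. The log2 difference was 0.17 with an interval from -0.35 to 0.70 and an adjusted p of 0.899, and it was -0.035 without wild-type replicate 3. Set against the summed FPKM of the cyclase receptors Npr1 and Npr2, Npr3 amounted to 3.34, 1.998 and 1.39% in wild-type and 3.59, 2.16 and 2.59% in EC-Jag1KO libraries, with means of 2.25 ± 0.998% and 2.78 ± 0.731%. Clearance receptor mRNA was thus a small share of receptor mRNA in every library, and the spread within each group exceeded the difference between them.

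The kinase gene Prkg1 (ENSMUSG00000052920, minus strand, chr19:30567551-31765033) had a difference close to that of Pde5a, and which of them was larger varied with the setting. It stood at 4.16, 4.43 and 3.87 FPKM in wild-type and 7.23, 4.34 and 7.40 FPKM in EC-Jag1KO libraries. The wild-type libraries lay close together, EC-Jag1KO replicate 2 lay within them, and the other EC-Jag1KO libraries lay well above. The means were 4.15 ± 0.283 and 6.33 ± 1.72 FPKM, a ratio of 1.52, and the log2 difference was 0.48 with SE 0.18, an interval from 0.047 to 0.91 and an adjusted p of 0.613. Without EC-Jag1KO replicate 2 the difference was 0.69 with an adjusted p of 0.323. It was 0.37 to 0.52 without any 1 of the other libraries, and the unadjusted p was then above 0.05 in each case. The difference was 0.32 in male libraries and 0.79 in female libraries. Cstf2t lies within Prkg1 on the other strand and stood at 7.31 to 8.48 FPKM in all libraries, with a log2 difference of 0.083.

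Prkg1 works in smooth muscle, whose markers were among the most abundant genes of these libraries. The 10 smooth muscle markers summed to 14513 to 15248 FPKM in wild-type and 12235 to 14468 FPKM in EC-Jag1KO aorta, none was at 0, and 3 of the 10 had the higher mean in EC-Jag1KO. Relative to the mean of these markers, log2 Prkg1 was -6.58, -6.57 and -6.55 in wild-type and -5.81, -6.48 and -5.63 in EC-Jag1KO libraries, and the groups were then apart by a mean of 0.59. EC-Jag1KO replicate 2 lay just above the wild-type libraries on this scale. The markers themselves add to this gap, since their mean log2 level differed by -0.11 in EC-Jag1KO. Prkg1 FPKM alone overlapped between the groups.

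Pde5a (ENSMUSG00000053965, plus strand, chr3:122729158-122859374), the cGMP-specific phosphodiesterase, was the gene of the 8 whose groups did not overlap. Its levels were 36.8, 38.5 and 29.7 FPKM in wild-type and 43.1, 42.5 and 59.99 FPKM in EC-Jag1KO libraries. Every EC-Jag1KO library lay above every wild-type library. Replicate 3 of each group lay farthest from its own mean, low in wild-type and high in EC-Jag1KO. Pde5a is longer than 91.7% of tested genes, and long genes as a set lay above their means in EC-Jag1KO replicate 3. The part of gene length in the Pde5a values was not tested beyond removing the length trend. The means were 35.0 ± 4.66 and 48.5 ± 9.94 FPKM, a ratio of 1.39, and the log2 difference was 0.45 with SE 0.17, an interval from 0.062 to 0.84 and an adjusted p of 0.588. With 1 library left out it was 0.29 to 0.53, and the unadjusted p was above 0.05 without EC-Jag1KO replicate 3 (difference 0.29) and without wild-type replicate 3 (difference 0.34). The difference was 0.18 in male libraries and 0.99 in female libraries, where it rests on 1 library per group. Relative to the smooth muscle markers, log2 Pde5a was -3.70, -3.71 and -3.90 in wild-type and -3.39, -3.46 and -2.77 in EC-Jag1KO libraries, again with no overlap.

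Pde1a (ENSMUSG00000059173, minus strand, chr2:79834453-80129458) is the calcium- and calmodulin-dependent phosphodiesterase. It stood at 6.02, 5.92 and 6.76 FPKM in wild-type and 8.41, 6.60 and 9.75 FPKM in EC-Jag1KO libraries. As with Prkg1, EC-Jag1KO replicate 2 lay within the wild-type range and the other EC-Jag1KO libraries lay above it. The means were 6.23 ± 0.460 and 8.25 ± 1.58 FPKM, a ratio of 1.32, and the log2 difference was 0.34 with SE 0.14, an interval from 0.0093 to 0.68 and an adjusted p of 0.635. Without EC-Jag1KO replicate 2 the difference was 0.48 with an adjusted p of 0.326, and without any 1 of the other libraries it was 0.23 to 0.39 with an unadjusted p above 0.05. It was 0.28 in male and 0.47 in female libraries.

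Pde3a (ENSMUSG00000041741, plus strand, chr6:141249269-141505940), the phosphodiesterase that hydrolyses cAMP and is inhibited by cGMP, showed no such pattern. Its levels were 25.9, 30.2 and 24.7 FPKM in wild-type and 29.5, 24.4 and 31.9 FPKM in EC-Jag1KO libraries. The lowest and the highest library were both EC-Jag1KO. The highest was replicate 3, where long genes lay above their means, and Pde3a is longer than 98.7% of tested genes. The log2 difference was 0.081 with an interval from -0.22 to 0.39 and an adjusted p of 0.923.

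The 3 phosphodiesterases together summed to 68.7, 74.6 and 61.2 FPKM in wild-type and 80.9, 73.5 and 102 FPKM in EC-Jag1KO libraries, with means of 68.2 ± 6.74 and 85.4 ± 14.5 FPKM and overlapping groups. Pde5a made up 53.6, 51.6 and 48.6% of that sum in wild-type and 53.2, 57.8 and 59.0% in EC-Jag1KO libraries. The groups overlapped in this share, with the highest values in EC-Jag1KO replicates 2 and 3.

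**Figure D3:**
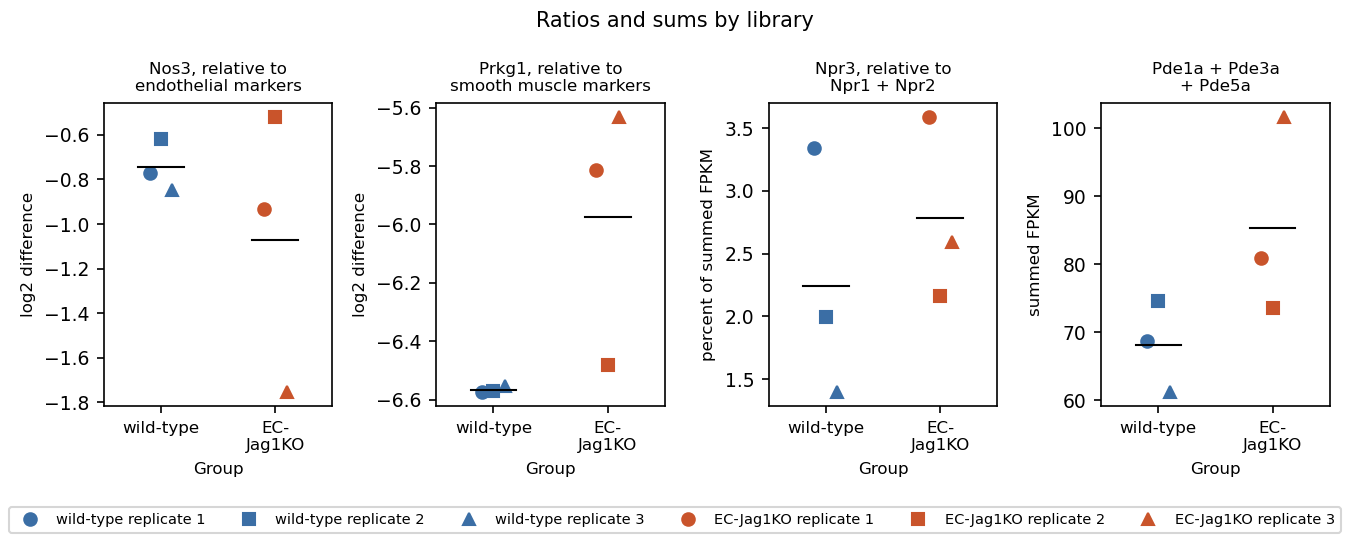
Values per library for 4 quantities, with wild-type in blue, EC-Jag1KO in orange and the group mean as a black line: log2 Nos3 minus the mean log2 of the endothelial markers, log2 Prkg1 minus the mean log2 of the smooth muscle markers, Npr3 as a percent of summed Npr1 and Npr2 FPKM, and the summed FPKM of Pde1a, Pde3a and Pde5a. Of the 4, the Prkg1 panel is the one with groups apart, by a mean of 0.59. Prkg1 FPKM alone overlapped between the groups, and the mean log2 of the smooth muscle markers itself differed by -0.11 in EC-Jag1KO. EC-Jag1KO replicate 3 is lowest for Nos3 at -1.76 and highest for the phosphodiesterases at 102 FPKM.

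The 8 genes also differ in base composition. Prkg1, Pde1a, Pde3a, Npr3 and Pde5a have GC contents of 41.5, 41.2, 43.0, 44.0 and 46.8%, and Npr2, Npr1 and Nos3 have 55.0, 57.4 and 58.2%. Over all tested genes the median log2 difference was 0.073 over the 3029 genes with the lowest GC content and -0.062 over the 3028 with the highest. With the GC trend of each library removed the difference was 0.39 for Prkg1, 0.41 for Pde5a and 0.26 for Pde1a, with adjusted p values of 0.651, 0.651 and 0.724 in limma.

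Around these genes, a list of 59 other pathway symbols was read in the same way. Of its 60 entries (Pde4d has 2 gene identifiers in the table), 35 were expressed at a mean of at least 1 FPKM and tested, and 0 passed adjustment in limma. Of those 35, 20 lay higher and 15 lower, with a median of 0.044. An unadjusted p under 0.05 was reached by 5, each higher, and the groups were apart for 6, of which 5 were higher, against 7.71% and 13.6% of all tested genes. The count of 5 was 3 without wild-type replicate 1 and 2 without wild-type replicate 2.

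On the nitric oxide side, 9 genes that supply or handle the synthases were tested, and 5 lay higher and 4 lower with a median of 0.015. The other synthases were scarce: Nos1 had 6 to 30 reads and Nos2 had 1 to 50 reads per library. For soluble guanylyl cyclase, the nitric oxide receptor, the tested genes were its subunits Gucy1a1 and Gucy1b1 and the reductase Cyb5r3, which keeps its haem iron in the reduced state. All 3 lay lower, with a median of -0.13. The alpha subunit Gucy1a1 stood at 36.3, 48.7 and 52.8 FPKM in wild-type and 37.4, 25.0 and 53.3 FPKM in EC-Jag1KO libraries, a log2 difference of -0.29 with an adjusted p of 0.848. That difference was -0.022 with EC-Jag1KO replicate 2 left out and -0.55 with EC-Jag1KO replicate 3 left out. The beta subunit Gucy1b1 stood at 73.6, 83.1 and 81.8 FPKM and at 74.3, 59.1 and 85.9 FPKM, a difference of -0.13 with an adjusted p of 0.880. For both subunits EC-Jag1KO replicate 2 was the lowest library and EC-Jag1KO replicate 3 the highest.

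Messages for the peptide ligands were scarce in this tissue, where 0 reads allow up to 3. Nppa, which encodes atrial natriuretic peptide, had 3, 0 and 11 reads in wild-type and 0, 1 and 0 reads in EC-Jag1KO libraries. Nppb, for B-type peptide, had 2, 0 and 11 reads and then 0 in each EC-Jag1KO library, and Nppc, for C-type peptide, had a single read in 1 library. Of the proteases that process or clear the peptides, 3 were tested. Mme, the peptidase neprilysin that degrades natriuretic peptides, stood at 2.70, 0.779 and 2.76 FPKM in wild-type and 4.59, 3.53 and 4.30 FPKM in EC-Jag1KO libraries. Its groups did not overlap, with a log2 difference of 0.81 (adjusted p = 0.585), and the difference was 0.46 without wild-type replicate 2. That library was also the lowest for adipocyte markers, whose summed level ranged from 258 to 1673 FPKM in wild-type and 635 to 1302 FPKM in EC-Jag1KO aorta, with 8 of 11 higher on average in EC-Jag1KO and none at 0. With the adipocyte marker level as a covariate the Mme difference was 0.64, with an adjusted p of 0.480 in limma. None of the 5 genes for other membrane guanylyl cyclases and their ligands reached 1 FPKM.

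Among 8 tested kinase substrates and partners, 4 lay higher and 4 lower. Irag1, through which the kinase restrains calcium release from stores, stood at 75.1, 82.6 and 72.9 FPKM in wild-type and 92.0, 92.6 and 102 FPKM in EC-Jag1KO libraries. Its groups were apart, with a ratio of means of 1.24, a log2 difference of 0.31 and an adjusted p of 0.524. Kcnmb1, a subunit of the calcium-activated potassium channel, was apart in the other direction, at 64.2, 70.5 and 68.9 FPKM against 60.3, 54.4 and 61.7 FPKM, with a difference of -0.21 and an adjusted p of 0.670.

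Of 10 tested entries for other phosphodiesterases, 8 lay higher and 2 lower, with a median of 0.33, against 50.0% of all tested genes above 0. Pde4d counts as 2 of these entries, both higher. Pde8a, which is specific for cAMP, stood at 5.35, 4.04 and 5.38 FPKM in wild-type and 6.85, 6.06 and 8.19 FPKM in EC-Jag1KO libraries, with a difference of 0.44 and an adjusted p of 0.544. Pde7a, also specific for cAMP, stood at 4.07, 3.68 and 3.53 FPKM and at 4.48, 4.65 and 5.32 FPKM, with a difference of 0.29 and an adjusted p of 0.607. Both had groups that did not overlap.

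The cAMP phosphodiesterase Pde4d appeared under a pair of identifiers, which may share reads. The shorter entry (ENSMUSG00000074661) stood at 3.47, 3.93 and 7.005 FPKM in wild-type and 7.19, 8.10 and 7.61 FPKM in EC-Jag1KO libraries, with a difference of 0.62 and an adjusted p of 0.573. The longer entry (ENSMUSG00000021699) stood at 4.21, 3.42 and 6.47 FPKM and at 6.76, 5.50 and 8.76 FPKM, with a difference of 0.50 and an adjusted p of 0.654. Pde4a went the other way, at 12.0, 14.1 and 13.1 FPKM against 8.9998, 9.80 and 12.6 FPKM, a difference of -0.31 with an adjusted p of 0.654. Of the 2 tested genes for cGMP export, 1 lay higher and 1 lower, with a median of 0.11.

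**Figure D4:**
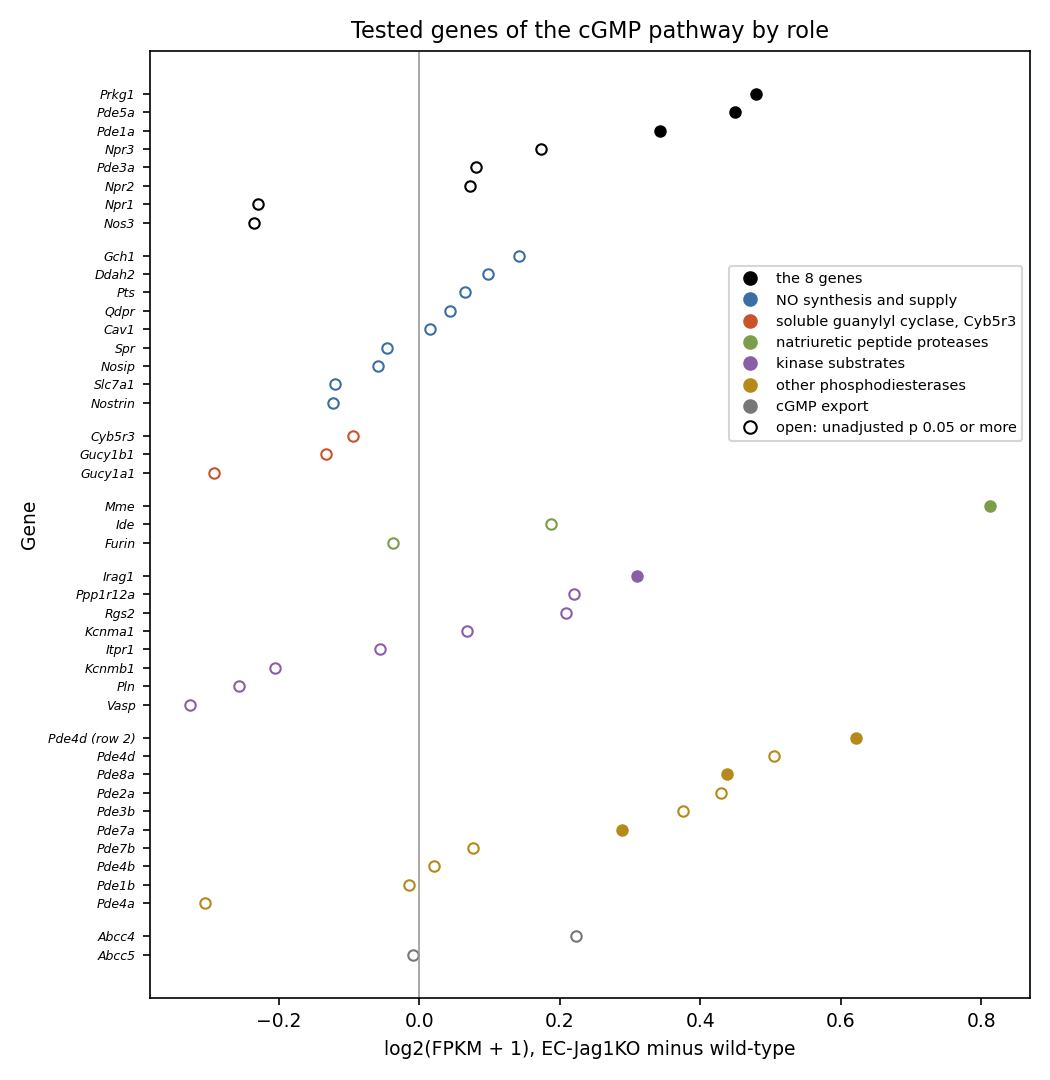
Log2 difference between EC-Jag1KO and wild-type aorta (horizontal axis, log2(FPKM + 1)) for the 8 genes and the 35 tested entries of the pathway list, coloured by role, with filled points for an unadjusted p under 0.05 and open points for the rest. All 8 filled points lie to the right of 0, the cyclase subunits Gucy1a1 and Gucy1b1 and the reductase Cyb5r3 lie to the left, and Pde4d (row 2) is the entry ENSMUSG00000074661.

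For each of the 8 genes, the genes of most similar pattern were found among expressed genes (mean of at least 5 FPKM) by the root-mean-square difference of centred log2 values over the 6 libraries, where a smaller value means a closer pattern. Nearest to Nos3 were Ndufaf2 (0.077), Tmem147 (0.080) and Ppp1r14a (0.091), against a median of 0.41 over all candidates. Nearest to Npr1 were Foxp4 (0.033), Noc2l (0.036) and Hyou1 (0.044), and nearest to Npr2 were Sugp2 (0.015), Eif2b1 (0.016) and Rgs3 (0.036). Npr3 had Adam11 (0.10), Layn (0.12) and Aldh3a1 (0.13) as its nearest, against a median of 0.33 for its candidates. Such medians differ by gene and were lowest for Npr2, at 0.18. Nearest to Prkg1 were Stag2 (0.076), Atrx (0.077) and Arhgap5 (0.087). Nearest to Pde1a were Zfp397 (0.015), Ptbp3 (0.041) and Tbx18 (0.046), and among the nearest to Pde3a were Dstyk (0.038) and Tspan2 (0.040). Nearest to Pde5a were Myo9a (0.065), Fndc3a (0.066) and Fstl1 (0.077). None of the 8 was among the 3 nearest of another, but Npr3, with a mean under 5 FPKM, was not a candidate. With 6 libraries such likeness describes these samples only.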

How the data were processed

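The authors deposited 1 table of FPKM values with gene coordinates and lengths, per the file headers. Total RNA was column-purified, per the labels' protocols. STAR, HTSeq, edgeR and mm10 are named in the submitters' processing notes, without role or version; the sources used here do not give the annotation release, strand setting or filters.

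From the deposited FPKM, 211650 of 211650 values gave whole reads within 0.1, which gave the depth; at the median gene length 3 reads equal 0.0732 to 0.0954 FPKM. The 12165 genes averaging 1 FPKM or more were tested as log2(FPKM + 1) in limma 3.58.1 (R 4.3.3) in a model of genotype alone with a trend of variance on level, two-sided tests and Benjamini-Hochberg adjustment over all of them. Fold changes on this scale understate those of low genes. The test was checked on simulated data. Libraries differed by far more than sampling noise (chi-square per degree of freedom 24.4 to 73.7), so none was entered more than once.

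The 8 genes, the pathway list and the marker lists for endothelium, smooth muscle and 9 other cell types or tissues were chosen with earlier results of these data known. Named from the pathway list were Gucy1a1, Gucy1b1, Nppa, Nppb, Nppc, Nos1, Nos2 and the 8 other entries of smallest unadjusted p, and for each of the 8 genes the 3 nearest by pattern, of which a gene is not reported here. Cyb5r3 and the marker genes Cldn5 and Upk1b were named after their values were seen. Of 59 symbols, 3 matched through an older symbol. Genes of the sex chromosomes were used to read sex, which the labels used here do not give. Alternatives covered pseudocount, filter, scaling, variance trend, covariates (adipocyte, endothelial, sex), a block on replicate number, voom on recovered reads and each library left out. Removal of both female libraries, the sex interaction, and removal of trends with length or GC content (loess; 99.6% of tested genes had a GC value) were chosen after seeing the data. Figures used matplotlib 3.10.9 in Python 3.11.15.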

Additional observations from a re-analysis of the deposited data

Results flagged for a closer look

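The Nos3 difference between the genotypes took opposite directions in the male and the female libraries. The log2 difference was 0.25 among the 4 male libraries and -1.21 between the 2 female libraries, and the interaction in limma gave an adjusted p of 0.106 over all tested genes. The female value is a comparison of 1 library with 1 library, so that test holds no spread among female libraries. Sex and library cannot be told apart here. With EC-Jag1KO replicate 3 left out, the Nos3 difference was 0.11.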

How the results depend on the processing

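Across 19 alternatives, 0 of the 8 genes and 0 of the pathway list passed adjustment, and the smallest adjusted p of the 8 was 0.323. Over all tested genes the count was 0 in the main analysis, 1 with sex as a covariate, 2 without both female libraries and 0 to 4 with 1 library left out (4 without EC-Jag1KO replicate 1). The count of the 8 at an unadjusted p under 0.05 was 3, and it was 1 with the endothelial covariate, 0 without both female libraries and 0 to 4 with 1 library left out. For the pathway list it was 5, 8 with the length trend removed and 2 to 7 with 1 library left out.

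Of 361 values for 19 named genes, 353 kept their direction and side and 8 reversed: Nos3, 0.11 without EC-Jag1KO replicate 3 (range with 1 library left out -0.44 to 0.11) and 0.25 without both female libraries; Npr2, -0.011 without EC-Jag1KO replicate 2 (-0.011 to 0.14); Npr3, -0.035 without wild-type replicate 3 (-0.035 to 0.40); Pde3a, -0.056 without both female libraries and -0.0057 with the length trend removed; Gucy1b1, 0.0096 without EC-Jag1KO replicate 2 (-0.26 to 0.0096); and Jag1, -0.091 without EC-Jag1KO replicate 3 (-0.091 to 0.40). The cause was not tested.

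Same-numbered libraries of the groups did not deviate together (correlations 0.055, 0.051 and -0.050). This cannot decide whether the numbers pair the samples, since the female libraries, both replicate 3, gave -0.050. With the replicate block, 0 genes passed adjustment and 842 of all tested genes had an unadjusted p under 0.05 (938 without it). That count ranged from 594 (EC-Jag1KO replicate 1 left out) to 1437 (EC-Jag1KO replicate 2 left out) and was 1436 with no filter on low values. The planned edgeR count model was not run, because the deposited values are FPKM and not counts. The voom fit on recovered reads was run in its place. Depth limits most the 25 pathway entries under a mean of 1 FPKM, which were not tested.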
